A study of Homo sapiens with 6 samples.

Results

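The genes described here are 35 genes of the integrated stress response that act around the transcription factor ATF4. They comprise its upstream kinases, its partner and feedback regulators, and the amino acid enzymes, amino acid transporters and secreted products that ATF4 is known to control. They were chosen by name as members of this pathway, with earlier results of these data known, from the 35474 genes listed in the count table. All 35 were listed, and all 35 were among the 20776 genes that passed the filter on low counts and entered the test.

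A549, a human lung adenocarcinoma cell line, was transfected with siRNA against BAP18 (3 cultures, siBAP18) or with a non-specific siRNA (3 cultures, siCtrl). BAP18, encoded by C17orf49, is a chromatin reader of trimethylated histone H3 lysine 4. Cells were collected 48 h after transfection, and poly(A) RNA was sequenced. Every library comes from 1 cell line at 1 time, and which of the BAP18 siRNAs was transfected is not given in the sources used here.

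The integrated stress response starts when a stress-sensing kinase phosphorylates the initiation factor eIF2. Most protein synthesis then slows while the mRNA of ATF4 is translated more efficiently, so that ATF4 protein is set in large part after transcription and is not measured by RNA-seq. ATF4 pairs with C/EBP proteins on C/EBP-ATF response elements, raises genes for amino acid uptake and synthesis, and under lasting stress induces DDIT3 and the phosphatase subunit PPP1R15A, which restores eIF2 activity. In lung adenocarcinoma cells the same program is known for supplying serine, one-carbon units and cystine.

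The libraries held between 42094524 and 56548620 assigned counts, of which mitochondrial genes took 6.86% to 7.43% in siCtrl and 5.27% to 6.14% in siBAP18. Counts of C17orf49 were 743, 751 and 705 with siCtrl and 120, 137 and 108 with siBAP18, a log2 fold change of −2.65 ± 0.11 (SE, adjusted p = 7.31e-16, from the quasi-likelihood test of edgeR, Benjamini-Hochberg adjusted over all 20776 genes). The epithelial genes KRT8, KRT18 and EPCAM and the A549-associated genes AKR1B10, AKR1C1 and ALDH1A1 were present in all 6 libraries, while CDKN2A, which A549 lacks, stood at 0.0499 CPM on average in siCtrl (CPM, counts scaled by library size, with TMM factors). CDH1, the epithelial cadherin, fell in siBAP18 by 1.32 on the log2 scale.

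The members moved in both directions. Most stress regulators rose, led by PPP1R15A and DDIT3. The serine and one-carbon enzymes held no member that rose, and most transporters that passed the test fell. By the same test 24.5% of all genes tested rose and 25.1% fell, and the role groups are small. In what follows a gene passed the test when its adjusted p was under 0.05 in that test, and it was called when its fold change was also over 2. Levels are given as CPM within a gene, and as RPKM, which divides by gene length, between genes.

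Of the 35 members, 5 were called higher in siBAP18, against 4.72% of all genes tested, and 1 was called lower, against 3.74%. By the adjusted p alone 14 members rose, against 24.5% of all genes tested, 10 fell, against 25.1%, and 11 did not pass. The lowest siBAP18 library lay above the highest siCtrl library for 14 members, against 27.6% of all genes tested, and the groups were separated the other way for 10 members, against 29%. The members with separated groups were exactly the 24 that passed the test. As shares, 14.3% of the members were called higher, 40% passed in the upward direction and 28.6% in the downward direction. Most members are well expressed, and among the 14222 genes with an average of at least 1 on the log2 CPM scale, a level 34 of the 35 members reached, the shares were 2.45% called higher, 29.1% up and 31.8% down. Of the 24 members that passed, 18 changed by less than 2-fold. The median log2 fold change over all 35 members was 0.08, and over all genes tested it was 0.001. Fewer cells that express a gene and less of its RNA per cell cannot be told apart in these bulk libraries.

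**Figure D1:**
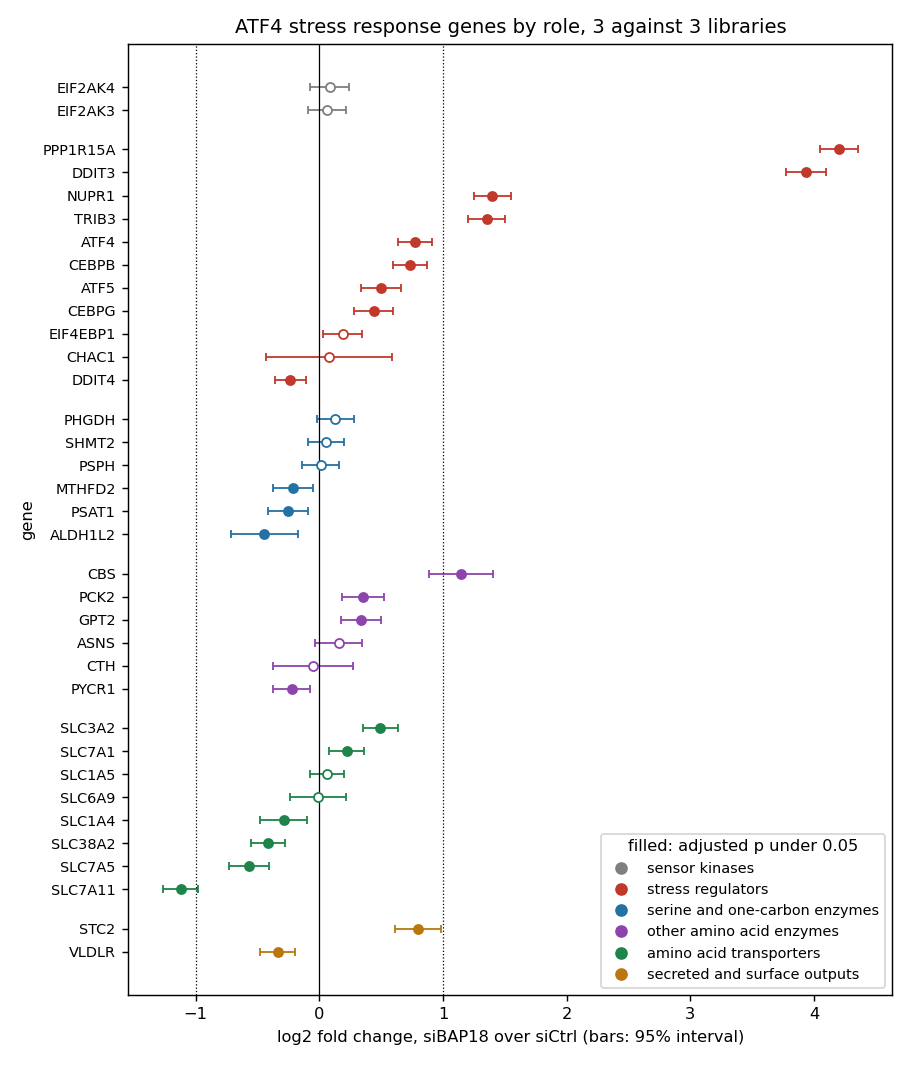
Log2 fold change of siBAP18 over siCtrl (horizontal axis) for each of the 35 genes (vertical axis), coloured by role, with 95% intervals as bars; filled points have an adjusted p under 0.05 and dotted lines mark 2-fold. PPP1R15A (4.20) and DDIT3 (3.94) lie far to the right of all other members, and SLC7A11 (−1.12) is the one member beyond the left dotted line.

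Promoter sequences were examined because ATF4 acts through a defined element. Windows from RefSeq (GRCh38.p14), from 250 bases before to 50 bases after the annotated start, were matched for 27 of the 35 members; NUPR1, EIF4EBP1, PSPH, SHMT2, ALDH1L2, GPT2, PYCR1 and SLC7A11 were not matched. The C/EBP-ATF response element core, TGATGNAA on either strand, occurred in 4 of the 27 member windows (14.8%), against 3.67% of all 27305 windows in the table and 1.71% of those of genes tested. Those 4 members are CHAC1, ASNS, SLC3A2 and SLC7A1, and none of them was called. The stretches around the core are shown 5′ to 3′ on the strand of the gene, with the core in capitals; in CHAC1 and SLC3A2 it reads on the opposite strand.
CHAC1 (chr15:40953251-40953280, + strand): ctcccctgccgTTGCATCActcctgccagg
ASNS (chr7:97872458-97872487, − strand): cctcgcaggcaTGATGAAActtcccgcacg
SLC3A2 (chr11:62881725-62881748, + strand): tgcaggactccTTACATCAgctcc
SLC7A1 (chr13:29595663-29595692, − strand): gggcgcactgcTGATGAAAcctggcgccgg
The core began 209 bases before the start in CHAC1, 68 before in ASNS, 37 after in SLC3A2 and 7 after in SLC7A1. A single window was used for each gene, and its start need not be the outermost start of the deposited gene. The deposited gene begins at 40952962 for CHAC1 and at 62856102 for SLC3A2, and all 4 cores lie inside the deposited genes.

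The upstream sequences of DDIT3 and PPP1R15A, the members with the largest changes, held no match to that core in this window. They are shown up to the edge of the deposited gene, with other matches in capitals: TGACTCA, the AP-1 site, in DDIT3 and TGACGTCA, the cAMP response element, in PPP1R15A.
DDIT3 (chr12:57520518-57520764, − strand): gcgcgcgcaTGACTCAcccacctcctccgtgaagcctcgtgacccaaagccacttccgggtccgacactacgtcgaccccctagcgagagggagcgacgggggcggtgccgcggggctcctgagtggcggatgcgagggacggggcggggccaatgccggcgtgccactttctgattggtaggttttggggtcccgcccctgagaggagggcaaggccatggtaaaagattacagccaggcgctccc
PPP1R15A (chr19:48872171-48872391, + strand): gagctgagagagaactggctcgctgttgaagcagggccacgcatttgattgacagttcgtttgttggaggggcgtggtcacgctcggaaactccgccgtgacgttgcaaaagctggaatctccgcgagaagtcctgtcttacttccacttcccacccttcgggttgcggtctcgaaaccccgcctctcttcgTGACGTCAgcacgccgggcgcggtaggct
The AP-1 site began 241 bases before the DDIT3 start and also occurred in the windows of ATF5 and SLC3A2, that is in 11.1% of member windows against 4.92% of all windows and 3.4% of those of genes tested. In ATF5 and SLC3A2 the match lies inside the deposited gene. The cAMP response element began 58 bases before the PPP1R15A start, and no other member window held it (3.7% of members against 1.98% of all windows and 3.08% of those of genes tested). Both words, searched on both strands, and the sequences shown were chosen after the members' values were seen, the words from 6 that were searched. A match in letters is a description and not a measured binding site.

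The sensor kinases did not pass the test. EIF2AK3 encodes PERK, which senses unfolded protein in the endoplasmic reticulum, and its log2 fold change was 0.06 with a 95% interval from −0.09 to 0.22 (adjusted p = 0.533, edgeR). EIF2AK4 encodes GCN2, which senses uncharged tRNA. It stood at 59.2, 65.3 and 60.9 CPM in siCtrl and 64.4, 74.7 and 57.0 CPM in siBAP18, a log2 fold change of 0.08 ± 0.08 (SE, adjusted p = 0.417, edgeR). Its siBAP18 libraries lay on both sides of the siCtrl range. Without siBAP18 replicate 3 the EIF2AK4 value was 0.17 (adjusted p = 0.023, edgeR), and with offsets for GC content and gene length, an analysis added after the data were seen, both EIF2AK3 (0.17, adjusted p = 0.022) and EIF2AK4 (0.14, adjusted p = 0.0452) passed. Kinase activity and eIF2 phosphorylation are not measured by transcript levels.

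Of the 11 stress regulators, 8 rose and 1 fell, against 24.5% and 25.1% of all genes tested. The other 2 did not pass, and the median log2 fold change was 0.73. In this group 4 were called higher, against 4.72% of all genes tested. ATF4 itself (chr22:39519695-39522685) stood at 332, 313 and 340 CPM in siCtrl and at 575, 517 and 594 CPM in siBAP18. Every siBAP18 library was above every siCtrl library, and the log2 fold change was 0.78 ± 0.07 (SE, adjusted p = 1.09e-09, edgeR), a 1.71-fold rise that did not reach 2-fold. The ATF4 pseudogenes ATF4P3 and ATF4P4 had at most 300 counts in any library, against at least 14560 for ATF4, and how reads were shared between near-identical copies is not given in the sources used here.

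PPP1R15A, also called GADD34, is the inducible subunit that brings protein phosphatase 1 to eIF2 and so ends the response. The gene (chr19:48872392-48876057) stood at 214, 212 and 230 CPM in siCtrl and at 4281, 3853 and 3899.8 CPM in siBAP18. The groups were far apart and the 3 siBAP18 libraries were close to each other. The log2 fold change was 4.20 ± 0.08 (SE, adjusted p = 1.24e-22, edgeR), an 18.4-fold rise and the largest among the members. Per gene length it moved from rank 5 to rank 1 among the members, from 70.5 ± 2.89 to 1298 ± 90.9 RPKM (mean and SD, n = 3), and from rank 686 to rank 43 among all listed genes.

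DDIT3 encodes CHOP, the C/EBP-family factor of prolonged stress. It stood at 11.8, 10.4 and 11.7 CPM in siCtrl and at 188, 170 and 160 CPM in siBAP18, with counts of 630, 483 and 545 against 10238, 9945 and 6502. All 3 siBAP18 libraries were high and the siCtrl libraries were uniformly low. The log2 fold change was 3.94 ± 0.08 (SE, adjusted p = 6.54e-22, edgeR), a 15.3-fold rise. DDIT3 (chr12:57516588-57520517) shares 355 of its 1266 exonic bases with MARS on the opposite strand. MARS, the methionyl-tRNA synthetase, had 3602, 3166 and 3139 counts in siCtrl and 6572, 6435 and 4627 in siBAP18, and the labels describe strand-specific libraries without the strand setting of the counting, so the part of shared reads in the DDIT3 value was not tested.

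NUPR1, a small chromatin protein of the stress response, stood at 22.4, 21.7 and 21.5 CPM in siCtrl and at 55.2, 54.5 and 63.5 CPM in siBAP18. TRIB3, a pseudokinase that binds ATF4 and dampens its activity, stood at 15.1, 16.3 and 14.7 CPM in siCtrl and at 40.6, 37.7 and 39.2 CPM in siBAP18. In both genes the siBAP18 values were clear of the siCtrl values in all 3 libraries. The log2 fold changes were 1.40 ± 0.07 for NUPR1 (SE, adjusted p = 9.08e-14) and 1.35 ± 0.07 for TRIB3 (SE, adjusted p = 1.52e-13), both from edgeR.

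The bZIP partners rose less. CEBPB, which pairs with ATF4 on its response element, changed by 0.73 on the log2 scale (adjusted p = 3.79e-09, edgeR). CEBPG, its relative without an activation domain, had 0.44 (adjusted p = 5.47e-05), and ATF5, a factor of the same family that is translated under stress like ATF4, had 0.50 (adjusted p = 1.42e-05). ATF5 shares 21.2% of its exonic bases with NUP62 on the opposite strand, and the part of shared reads in its value was not tested.

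The remaining regulators did not follow. DDIT4, also called REDD1 and an inhibitor of mTORC1, fell by a log2 value of 0.23 (edgeR, adjusted p = 0.00352), from 157, 150 and 157 CPM to 133, 130 and 131 CPM. It overlaps RP11-442H21.2 on the opposite strand over 41.2% of its exonic bases. That gene had 7208, 6021 and 6375 counts in siCtrl and 6372, 6691 and 4564 in siBAP18. DDIT4 had 8346, 6962 and 7356 in siCtrl and 7247, 7616 and 5306 in siBAP18. Whether the same reads were counted in both genes was not tested. EIF4EBP1, which blocks cap-dependent translation, had a log2 fold change of 0.19 with an adjusted p of 0.0519 (edgeR), close enough to the threshold that 7 of the 17 alternative analyses put it past and 1 turned its sign. CHAC1, which degrades glutathione, had only 36, 38 and 52 counts in siCtrl and 50, 52 and 38 in siBAP18. Its log2 fold change of 0.08 had a 95% interval from −0.43 to 0.59 (adjusted p = 0.823, edgeR), which leaves a change of moderate size in either direction undetectable at this depth.

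**Figure D2:**
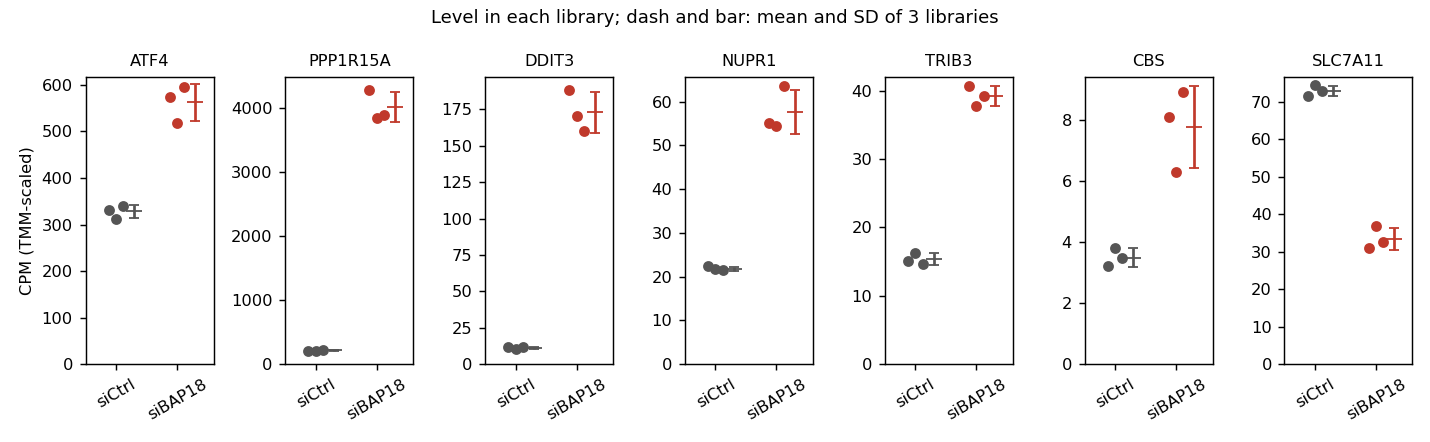
CPM scaled by TMM (vertical axes, each starting at 0) in each of the 3 siCtrl (grey) and 3 siBAP18 (red) libraries for ATF4 and the 6 called members; dashes and bars beside the points are means and SDs. No panel has overlapping groups, and SLC7A11, from 71.6 to 74.4 in siCtrl and 31.1 to 36.8 in siBAP18, is the only panel in which siBAP18 is lower.

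Of the 6 serine and one-carbon enzymes, none rose and 3 fell, against 24.5% and 25.1% of all genes tested. The other 3 did not pass, and the median log2 fold change was −0.10. PHGDH, which commits 3-phosphoglycerate to serine synthesis, had a log2 fold change of 0.13 (95% interval −0.02 to 0.28, adjusted p = 0.173, edgeR). PSAT1, the transaminase of the next step, fell by 0.25 (adjusted p = 0.0142, edgeR), and PSPH, the phosphatase of the last step, had a value of 0.01 (adjusted p = 0.921). The mitochondrial enzymes take the pathway on to folate. SHMT2, which splits serine into glycine and a one-carbon unit, changed by 0.05 on the log2 scale (edgeR, adjusted p = 0.595), and MTHFD2, which oxidises that unit, fell by 0.21 (adjusted p = 0.0378). MTHFD2 shares 27.2% of its exonic bases with SLC4A5 and 6.06% with RP11-287D1.3, both on the opposite strand. The part of shared reads in the MTHFD2 value was not tested.

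ALDH1L2, the mitochondrial formyltetrahydrofolate dehydrogenase, had the smallest adjusted p of this group. It stood at 4.10, 4.41 and 4.66 CPM in siCtrl and at 2.96, 2.98 and 3.80 CPM in siBAP18. All siBAP18 libraries were lower, the third one by the least. The log2 fold change was −0.45 ± 0.14 (SE, adjusted p = 0.00889, edgeR). The fall of MTHFD2 passed in 7 of the 17 alternative analyses and that of PSAT1 in 11 of 17. With offsets for GC content and gene length none of the falls of PSAT1, MTHFD2 and ALDH1L2 passed (−0.15, −0.0050 and −0.22).

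Among the 6 other amino acid enzymes 3 rose and 1 fell, against 24.5% and 25.1% of all genes tested. The other 2 did not pass, and the median log2 fold change was 0.25. ASNS, asparagine synthetase and the textbook amino acid response gene, had a log2 fold change of 0.16 (95% interval −0.03 to 0.35, adjusted p = 0.193, edgeR), and without siBAP18 replicate 3 it was 0.26 (adjusted p = 0.00751). PCK2, mitochondrial phosphoenolpyruvate carboxykinase, rose by 0.36 (adjusted p = 0.00129), and GPT2, mitochondrial alanine transaminase, by 0.34 (adjusted p = 0.00128). PYCR1, which makes proline, fell by 0.22 (adjusted p = 0.0174, edgeR). It shares 15.6% of its exonic bases with RP11-498C9.13 on the opposite strand and 14.1% with MYADML2 on the same strand. The part of shared reads in the PYCR1 value was not tested.

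The pair of transsulfuration enzymes differed. CBS, which condenses homocysteine with serine, stood at 3.20, 3.81 and 3.47 CPM in siCtrl and at 8.07, 6.28 and 8.91 CPM in siBAP18, all above the siCtrl libraries. Its log2 fold change was 1.15 ± 0.13 (SE, adjusted p = 7.16e-08, edgeR), while CTH, which releases cysteine in the next step, had −0.05 (95% interval −0.37 to 0.27, adjusted p = 0.818). The near-identical copy CBSL had 184, 181 and 148 counts in siCtrl and 440, 459 and 350 in siBAP18, so the share of reads that belongs to each copy is uncertain. With limma on log2(RPKM + 1) the CBS value was 0.50, under the 2-fold limit.

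Of the 8 amino acid transporters, 2 rose and 4 fell, against 24.5% and 25.1% of all genes tested. The other 2 did not pass, and the median log2 fold change was −0.15. SLC7A11, also called xCT, exchanges glutamate for cystine, which supplies glutathione synthesis. The gene (chr4:138164097-138242349) stood at 71.6, 74.4 and 72.8 CPM in siCtrl and at 31.1, 36.8 and 32.7 CPM in siBAP18. Every siBAP18 library was below every siCtrl library by a wide margin. The log2 fold change was −1.12 ± 0.07 (SE, adjusted p = 3.12e-12, edgeR), a 2.17-fold lower level, and SLC7A11 was the only member called lower. Its antisense gene SLC7A11-AS1 overlaps 8.97% of its exonic bases. That gene had 515, 500 and 469 counts in siCtrl and 230, 297 and 141 in siBAP18. SLC7A11 itself had 3808, 3462 and 3403 counts in siCtrl and 1694, 2150 and 1324 in siBAP18. The antisense value may not be a separate measurement, since the part of shared reads in it was not tested. The SLC7A11 transcript has a GC content of 35.4%, and after offsets for GC content and gene length the value was −0.70, still past the adjusted p but under 2-fold.

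SLC3A2, also called CD98hc or 4F2hc, is the heavy chain that carries SLC7A11 and SLC7A5 to the cell surface. It rose from 593, 590 and 607 CPM to 801, 786 and 934 CPM, a log2 fold change of 0.49 ± 0.07 (SE, adjusted p = 2.65e-06, edgeR). SLC7A5, also called LAT1 and the carrier of large neutral amino acids such as leucine, fell from 699, 744 and 740 CPM to 431, 463 and 578 CPM, a log2 fold change of −0.57 ± 0.08 (SE, adjusted p = 2.94e-06, edgeR). The heavy chain and both light chains thus moved in opposite directions, with no overlap between groups in any of the 3 genes.

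The ratio of SLC7A5 to SLC3A2 per gene length was 1.29, 1.38 and 1.33 in siCtrl and 0.587, 0.642 and 0.675 in siBAP18. The ratio of SLC7A11 to SLC3A2 was 0.0649, 0.0677 and 0.0644 in siCtrl and 0.0209, 0.0251 and 0.0188 in siBAP18. Both ratios were lower in all 3 siBAP18 libraries. Each gave p = 0.1 in a two-sided exact permutation test, the smallest value that 20 assignments of 3 against 3 allow, and the ratios were chosen after the values were seen.

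**Figure D3:**
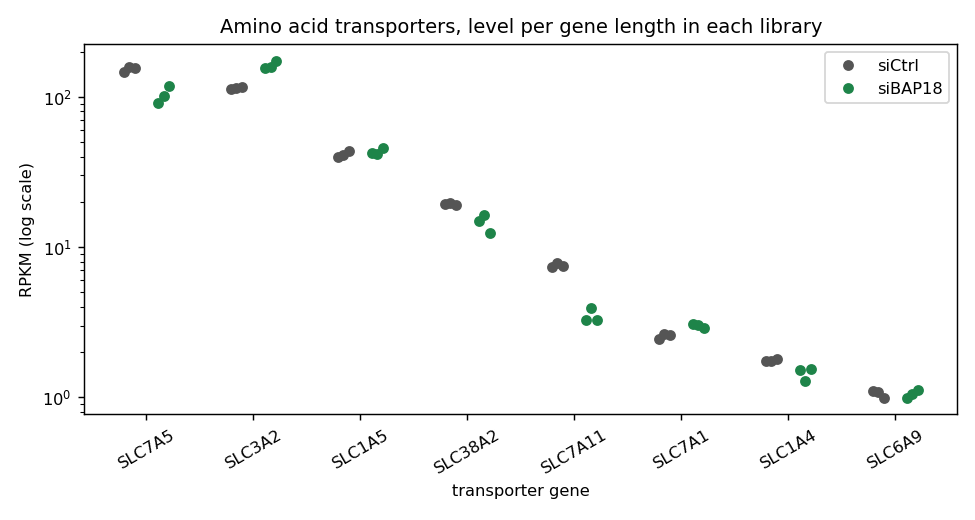
RPKM on a log scale (vertical axis) of the 8 amino acid transporters (horizontal axis) in each siCtrl (grey) and siBAP18 (green) library, ordered by the siCtrl mean. SLC7A5 is above SLC3A2 in siCtrl (153 against 115 RPKM on average) and below it in siBAP18 (103 against 162), and SLC7A11 drops from 7.55 to 3.49.

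Among the other transporters, SLC7A1, the cationic amino acid carrier for arginine and lysine, rose by a log2 value of 0.22 (edgeR, adjusted p = 0.0138). SLC38A2, also called SNAT2 and a sodium-coupled carrier of small neutral amino acids, fell by 0.42 (adjusted p = 2.75e-05), and SLC1A4, a carrier of alanine, serine and cysteine, fell by 0.29 (adjusted p = 0.0156). SLC1A5, also called ASCT2 and a glutamine exchanger, had a log2 fold change of 0.06 (95% interval −0.08 to 0.20, adjusted p = 0.502, edgeR). It shares 23.4% of its exonic bases with CTB-147N14.6 on the opposite strand, and the part of shared reads was not tested. SLC6A9, the glycine transporter GlyT1, had −0.01 (95% interval −0.24 to 0.21, adjusted p = 0.943). With the offsets SLC38A2 stood at −0.0859 and did not pass (adjusted p = 0.151, edgeR).

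The secreted and surface products went apart. STC2, a secreted glycoprotein, stood at 8.46, 9.68 and 9.26 CPM in siCtrl and at 14.6, 17.8 and 15.1 CPM in siBAP18, with no overlap and a log2 fold change of 0.80 ± 0.09 (SE, adjusted p = 1.03e-07, edgeR). VLDLR, a lipoprotein receptor at the cell surface, fell by 0.34 (adjusted p = 0.000404, edgeR), or by 0.12 with the offsets (adjusted p = 0.0584).

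Levels per gene length set the members in order. In siCtrl the highest were SLC7A5 (153 ± 6.34 RPKM, SD, n = 3), ATF4 (130 ± 4.26) and SLC3A2 (115 ± 1.46), and the lowest were CBS (0.513 ± 0.0502) and CHAC1 (0.421 ± 0.107), whose means differed by less than the SD of CHAC1. In siBAP18 the order began with PPP1R15A (1298 ± 90.9 RPKM), ATF4 (224 ± 9.60), SLC3A2 (162 ± 10.0) and DDIT3 (137 ± 14.0). The DDIT3 level was 0.0709, 0.0659 and 0.0681 of the ATF4 level in siCtrl and 0.650, 0.653 and 0.536 of it in siBAP18. The PPP1R15A level was 0.524, 0.550 and 0.550 of the ATF4 level in siCtrl and 6.05, 6.05 and 5.33 times it in siBAP18. The ASNS level went the other way, from 0.0232, 0.0221 and 0.0202 of the ATF4 level to 0.0156, 0.0159 and 0.0112. All 3 ratios had separated groups and the same smallest exact permutation p of 0.1, and they too were chosen after the values were seen.

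**Figure D4:**
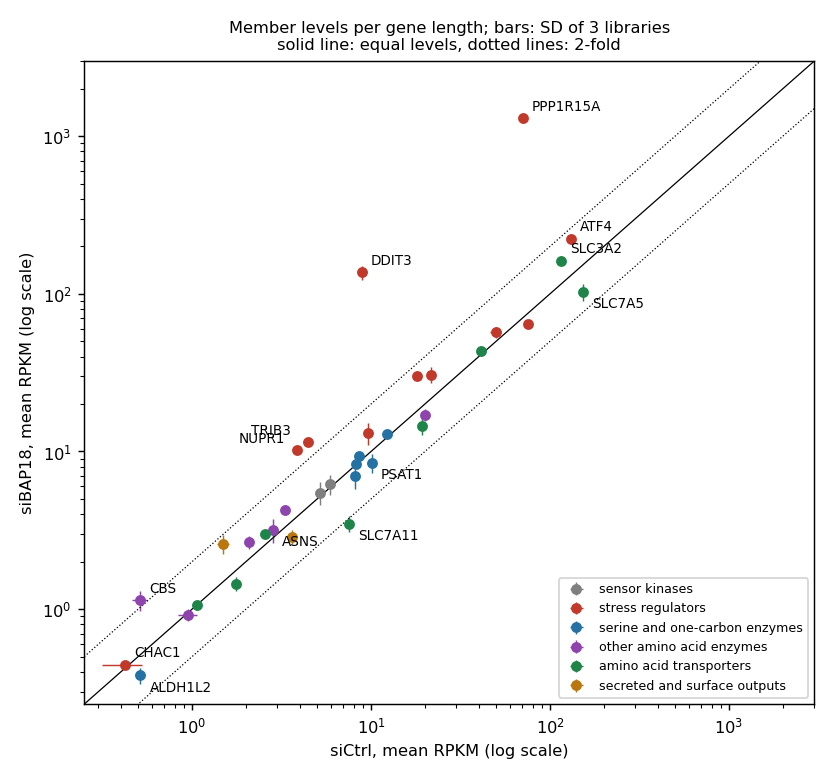
Mean RPKM in siCtrl (horizontal axis) against mean RPKM in siBAP18 (vertical axis) for the 35 members, both on log scales, with SDs of 3 libraries as bars; the solid line marks equal levels and the dotted lines 2-fold. PPP1R15A (70.5 to 1298) and DDIT3 (8.90 to 137) stand well above the upper dotted line, while the serine and one-carbon enzymes lie close to the solid line.

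The siBAP18 libraries differed in how far they moved. Of the 24 members that passed the test, siBAP18 replicate 2 lay nearest to the siCtrl mean in 14, and replicates 1 and 3 lay farthest from it in 9 and 11. Replicate 2 was the nearest in 50.6% of all 10305 genes that passed, against 58.3% of the members. Replicates 1 and 3 were the farthest in 27.5% and 49.5% of those genes, against 37.5% and 45.8% of the members. The median distance over the 24 members was 0.46, 0.49 and 0.54 on the log2 scale for replicates 1, 2 and 3. By that measure replicate 2 was not the library that moved least.

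Neighbouring parts of the pathway are given as counts and medians from lists of genes that are not members. Beside these counts, 24.5% of all genes tested rose and 25.1% fell. Of 15 other targets of the ATF4 pathway that were tested, 8 rose and 4 fell, with a median log2 fold change of 0.27. ATF3, an immediate stress factor that follows ATF4, stood at 7.52, 6.54 and 7.17 CPM in siCtrl and at 148, 133 and 131 CPM in siBAP18, a log2 fold change of 4.27 ± 0.08 (SE, adjusted p = 2.22e-22, edgeR). The cytokine GDF15 had 1.47 (adjusted p = 3.08e-14) and SESN2, a leucine sensor that restrains mTORC1, had 1.40 (adjusted p = 9.32e-12). CCPG1, a receptor for autophagy of the endoplasmic reticulum, fell by 1.17 (adjusted p = 4.99e-13, edgeR). Among 13 cytosolic aminoacyl-tRNA synthetases 8 rose and 3 fell, none past 2-fold, with a median of 0.28.

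Upstream, 15 genes of the eIF2 and eIF2B machinery were tested, of which 6 rose and 6 fell (median −0.10). The shares over all genes tested were 24.5% and 25.1%. The 1 called gene was EIF2AK2, which encodes the double-stranded RNA sensor PKR. It stood at 55.2, 58.8 and 56.2 CPM in siCtrl and at 25.5, 29.2 and 22.2 CPM in siBAP18, a log2 fold change of −1.14 ± 0.08 (SE, adjusted p = 1.99e-11, edgeR). EIF2AK1, which encodes the heme-regulated kinase HRI, also fell, with no overlap between groups and a log2 fold change of −0.40 (adjusted p = 9.91e-06, edgeR), while EIF2AK3 and EIF2AK4 did not pass. EIF2AK1 is under the 2-fold limit and is named here after its values were seen, to account for the eIF2 kinases. Chaperone and folding genes of the endoplasmic reticulum are the output of the parallel unfolded protein response. Of 17 such genes 4 rose and 7 fell (median −0.02), against 24.5% and 25.1% of all genes tested, and none was called.

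In the metabolic lists around the members more genes fell than rose. Over all genes tested 24.5% rose and 25.1% fell, and 3.74% were called lower. Of 16 other folate and glycine enzymes 1 rose and 10 fell (median −0.40). ALDH1L1, the cytosolic counterpart of ALDH1L2, was called lower, at a log2 fold change of −1.57 (edgeR, adjusted p = 5.79e-06). Of 12 other amino acid transporters that were tested 1 rose and 6 fell (median −0.27), and SLC36A1, a lysosomal proton-coupled carrier (−1.34, adjusted p = 6.24e-09), and SLC7A2, a cationic amino acid carrier (−1.12, adjusted p = 6.47e-11), were called lower. SLC7A11 is also controlled by the oxidative stress factor NRF2, and of 14 other NRF2 target genes 1 rose and 10 fell (median −0.35), none of them called. What these lists share with the fall of SLC7A11 was not tested.

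Because an siRNA can lower transcripts that match its seed, the 3′ UTRs of the members were searched for the complements of guide bases 2 to 8 of the 3 BAP18 siRNAs described by the study. The word for siBAP18#1, AATCACA, occurred in 5 of 35 members (14.3%, against 14.1% of 13746 tested genes with a 3′ UTR): NUPR1, ALDH1L2, CBS, SLC7A11 and SLC1A4. The word for siBAP18#2, AAGATTC, occurred in SLC7A11 and VLDLR (5.7% against 11.2%), and that for siBAP18#3, ACTCAAC, in NUPR1, ALDH1L2, SLC38A2 and STC2 (11.4% against 6.9%). Members with a word include genes that rose, NUPR1, CBS and STC2, and genes that fell. DDIT3 and PPP1R15A, which rose, held none of the 3 words. Their 3′ UTRs have 221 and 949 bases, and those of the members with a word have from 689 (CBS) to 7859 (SLC7A11). A longer 3′ UTR has more places for a word, and the shares were not matched for length. The guide of siCtrl was not searched, and which BAP18 siRNA was transfected is not given. Whether seed matches changed any member, directly or through other genes, was not tested.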

How the data were processed

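RNA from 3 siCtrl and 3 siBAP18 cultures of A549 was sequenced as paired-end reads of poly(A) RNA. The authors deposited a table with the read count of each gene in each library and a table of RPKM, the count scaled by gene length and by library size. The submitters' processing notes name hg38 and GRCm38, and the gene positions in the tables are human; the aligner, the counting tool and its strand setting are not given in the sources used here. The tables held 0 columns of other samples. Library sums of the deposited counts are 42094524 to 56548620, which sets the counting precision, and 3 counts were taken as the limit that a count of 0 allows.

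Counts were filtered with filterByExpr, scaled by TMM and tested with the quasi-likelihood test of edgeR 4.0.16 (R 4.3.3) on group alone, with Benjamini-Hochberg adjustment over all 20776 genes tested. Standard errors come from the fitted coefficients and their test, and 95% intervals are 1.96 standard errors wide on each side. With 3 cultures each, p-values set the group difference against the spread between cultures, which the fit estimates with information shared over genes. On simulated counts for 20485 genes with the means and library sizes of this comparison, 83 of 100 genes changed by 0.5 on the log2 scale and 100 of 100 changed by 1.5 were recovered, and 7 unchanged genes had an adjusted p under 0.05. The changed genes were drawn from well-counted genes only, and a fixed common dispersion was used for both groups. In the data the siBAP18 libraries differed from each other more than the siCtrl libraries did. Between pairs of libraries chi-square per degree of freedom was 11.0 to 25.8 in siBAP18 and 4.17 to 4.87 in siCtrl. Far fewer genes changed than in the data, so recovery there can be lower, above all for low counts. Positions and overlaps were read from the gene coordinates deposited with the counts. Transcripts and 3′ UTRs came from GENCODE 29 and promoter windows from RefSeq, with Python 3.11.15.

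The 35 members, their role groups and the pathway lists were chosen with earlier results of these data known. All members are accounted for. Every library is given for members past both thresholds, for ATF4 and for the member of each role group with the smallest adjusted p, and other members are given by log2 fold change. Genes of other pathway lists are named only where they pass both thresholds, at most 4 a list; 1 such gene is not reported here. Alternatives were DESeq2 1.42.0 (its size factors and its Wald test), upper-quartile scaling, totals only, 2 other filters, limma 3.58.1 with a pseudocount of 1 or 0.1 on log2 RPKM, for genes with a mean of 0.5 RPKM or more and for all genes, a replicate block, leaving out each library and, added after seeing the data, offsets for GC content and gene length.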

Additional observations from a re-analysis of the deposited data

How the results depend on the processing

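Over 17 alternatives the 35 members gave 591 values, of which 525 kept their direction and side of the adjusted p, 35 lost the adjusted p, 12 gained it and 19 changed sign; 14 members held throughout, among them ATF4, DDIT3, PPP1R15A, NUPR1, TRIB3, CBS, SLC7A11, SLC3A2 and SLC7A5. The count of members called lower was 0 with limma on log2(RPKM + 1), filtered or not (SLC7A11 at −0.93), and with offsets for GC content and gene length (−0.70). Members that fell by the adjusted p numbered 6 with limma on log2(RPKM + 1) and on log2(RPKM + 0.1), 5 without its filter and 5 with the offsets, and from 7 to 9 when a library was left out. The median of the serine and one-carbon enzymes was 0.0129 and 0.0142 under the filtered limma settings with a pseudocount of 1 and 0.1, which value 33 members and drop low ones, and that of the stress regulators was 0.54 with the offsets, the cause of which was not tested.

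The sign changes were in members that did not pass the test. With the offsets the values were −0.103 for CHAC1, 0.0213 for CTH, −0.0485 for EIF4EBP1, −0.113 for PSPH, −0.0535 for SHMT2 and −0.0876 for SLC1A5, and with no filter on low counts PSPH was −0.0050. Leaving out 1 library at a time gave −0.0828 to 0.293 for CHAC1, −0.144 to 0.0176 for CTH, −0.0176 to 0.142 for EIF2AK3, −0.0234 to 0.174 for EIF2AK4, −0.0412 to 0.0671 for PSPH, −0.0128 to 0.125 for SHMT2, −0.0080 to 0.113 for SLC1A5 and −0.0767 to 0.0366 for SLC6A9.

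Single libraries also decided small calls. The adjusted p was lost for MTHFD2 without any of siCtrl 1, 2 and 3 and siBAP18 3, for PSAT1 without siCtrl 2 or 3, for PYCR1 without siCtrl 1 or 2 or siBAP18 1 or 2, for SLC1A4 without siCtrl 3 or siBAP18 2, and for SLC7A1 without siCtrl 1 or siBAP18 1. It was gained for ASNS (0.264) and EIF2AK4 without siBAP18 3, for PHGDH (0.201) without siBAP18 2, and for EIF4EBP1 without siCtrl 3 (0.241) or siBAP18 2 (0.271).

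Same-numbered libraries had residual correlations of 0.08, 0.24 and 0.12 over 14222 genes, each siCtrl library correlating best with its own number, and nothing in the labels pairs them. With the replicate block 1741 genes were called, against 1758 without it, and 5 members were called higher and 1 lower, with ATF4 at 0.77 and SLC7A11 at −1.12. The depth limits CHAC1, with 36 to 52 counts a library.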
